A study of Homo sapiens with 12 samples.

Results

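The genes described here are 57 human genes of DNA replication and the cell cycle, measured as messenger RNA in neutrophil-like cells that were induced from the promyelocytic leukaemia line HL-60. They were chosen by name, as rows of the deposited expression table that occur once and reach at least 1 FPKM (fragments scaled to transcript length and library size) in 3 or more libraries. All 57 meet that rule by their choice, and 9715 genes did so in a table of 10465 rows. By textbook role, 38 were placed with G1 and S phase and are called replication genes, and 19 were placed with G2 and M phase and are called mitosis genes. The replication genes fall into 15 for origin licensing and the replicative helicase, 11 for polymerases and the sliding clamp, 4 for nucleotide supply and 8 regulators of the G1 to S transition. The mitosis genes fall into 7 cyclins and kinases, 5 of the checkpoint and anaphase, and 7 of the spindle, kinetochore and chromosomes.

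The cells received 1 of 4 treatments for 24 h, with 3 libraries each. One group received advanced glycation end products (AGEs, proteins modified by sugar) at 0.05 ug/mL, another D-glucose at 30 mmol/L, another both together, and the control group bovine serum albumin (BSA) at 0.05 ug/mL. No label says that BSA was added with glucose, so glucose against BSA may also differ in the added protein. The same limit holds for AGEs with glucose against glucose alone and for the comparisons over all 4 groups. The labels name neither the agent that induced the cells nor separate cultures for the libraries of a group, so the spread that the p-values rest on, which is that between these libraries, may be technical. HL-60 is a single leukaemia line, so no donor variation is covered, and in bulk RNA more cells in cycle and more RNA per cycling cell cannot be told apart.

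In a dividing cell, the origin recognition complex, CDC6 and CDT1 load the MCM2 to MCM7 ring onto DNA during G1, and CDC45 and the GINS proteins turn that ring into an active helicase at the start of S phase. Cyclin E with CDK2 drives this entry, and E2F transcription factors, held back by RB1 and its relatives until cyclin-dependent kinases act, switch on many of the replication genes. The mitosis genes come later, and many carry a cell cycle homology region (CHR) and CCAAT boxes in their promoters, through which the DREAM and MuvB complexes and NF-Y work. Granulocytes are known to leave the cycle as they mature, while uninduced HL-60 cells divide in culture.

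The 2 classes differed in the letters of their promoters. These are shown as background, and their part in the expression values below was not tested. RefSeq sequences of GRCh38.p14, from 250 bases before to 50 bases after the first listed start of each gene, matched 50 of the 57 genes, and MCM4, MCM5, CCNE2, CDK2, AURKA, BIRC5 and TPX2 had no entry. Each was searched on both strands for 4 E2F words (TTTCCCGC, TTTCGCGC, TTTGGCGC and TTTGCCGC), for 2 CHR words (TTTGAA and TTCGAA) and for CCAAT. Below, 3 replication promoters and 3 mitosis promoters are printed 5′ to 3′ along the gene, with every match in capitals.
MCM6 (chr2:135876394-135876693, minus strand): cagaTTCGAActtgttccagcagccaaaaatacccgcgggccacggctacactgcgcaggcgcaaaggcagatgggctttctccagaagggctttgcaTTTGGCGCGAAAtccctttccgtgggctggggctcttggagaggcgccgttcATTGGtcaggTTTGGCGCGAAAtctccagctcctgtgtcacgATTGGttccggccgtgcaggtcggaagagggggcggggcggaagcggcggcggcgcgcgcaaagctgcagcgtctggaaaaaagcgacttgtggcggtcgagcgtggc
MCM3 (chr6:52284693-52284992, minus strand): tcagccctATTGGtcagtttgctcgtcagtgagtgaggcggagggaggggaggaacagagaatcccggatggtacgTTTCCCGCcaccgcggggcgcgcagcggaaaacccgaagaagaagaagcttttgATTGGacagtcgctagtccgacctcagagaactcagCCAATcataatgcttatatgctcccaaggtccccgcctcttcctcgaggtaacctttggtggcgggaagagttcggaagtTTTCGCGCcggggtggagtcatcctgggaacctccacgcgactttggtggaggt
PCNA (chr20:5126573-5126872, minus strand): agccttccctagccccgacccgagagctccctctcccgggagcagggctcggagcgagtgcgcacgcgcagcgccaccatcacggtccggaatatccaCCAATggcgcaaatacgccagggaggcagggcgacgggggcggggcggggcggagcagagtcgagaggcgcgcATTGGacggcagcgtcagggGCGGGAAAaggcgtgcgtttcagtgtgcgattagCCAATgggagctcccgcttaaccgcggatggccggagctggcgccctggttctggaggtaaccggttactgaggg
TOP2A (chr17:40417847-40418146, minus strand): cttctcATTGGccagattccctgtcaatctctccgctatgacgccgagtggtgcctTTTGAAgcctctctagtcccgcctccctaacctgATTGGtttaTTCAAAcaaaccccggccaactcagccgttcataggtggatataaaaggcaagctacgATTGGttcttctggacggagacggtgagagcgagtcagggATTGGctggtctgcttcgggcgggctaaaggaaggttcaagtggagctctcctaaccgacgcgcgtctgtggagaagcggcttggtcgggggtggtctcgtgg
CDC20 (chr1:43358731-43359030, plus strand): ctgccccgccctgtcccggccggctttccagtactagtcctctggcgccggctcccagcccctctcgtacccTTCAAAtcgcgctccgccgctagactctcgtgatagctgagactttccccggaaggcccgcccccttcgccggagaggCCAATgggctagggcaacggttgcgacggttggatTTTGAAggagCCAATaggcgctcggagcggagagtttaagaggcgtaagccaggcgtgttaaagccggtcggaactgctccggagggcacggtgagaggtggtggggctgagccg
CCNB2 (chr15:59104896-59105195, plus strand): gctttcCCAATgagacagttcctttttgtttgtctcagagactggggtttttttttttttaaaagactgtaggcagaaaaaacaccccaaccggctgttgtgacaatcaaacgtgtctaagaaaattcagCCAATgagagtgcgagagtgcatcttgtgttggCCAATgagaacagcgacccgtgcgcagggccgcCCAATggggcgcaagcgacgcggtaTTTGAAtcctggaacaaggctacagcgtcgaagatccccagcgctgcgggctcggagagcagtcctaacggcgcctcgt
MCM6 holds a run in which the E2F words TTTGGCGC and TTTCGCGC overlap on opposite strands, and this run occurs at 2 places, and the promoter also holds 1 CHR word far from the start. MCM3 holds 2 E2F words and PCNA holds 1, read on the minus strand of the gene as GCGGGAAA. TOP2A and CDC20 hold 2 CHR words each and CCNB2 holds 1, each beside CCAAT boxes.

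An E2F word stood in 18 of 34 replication promoters (52.9%) and in 2 of 16 mitosis promoters (12.5%), those of CDK1 and NUSAP1. Over the 8102 promoters of genes in the expression table the share was 5.79%, and over all 27305 promoters it was 3.33%. A CHR word stood in 2 of 34 replication promoters (5.88%), those of MCM6 and RRM1, and in 12 of 16 mitosis promoters (75%), against 11.6% of the table's genes and 16.6% of all promoters. CCAAT stood in 58.8% of replication promoters, 93.8% of mitosis promoters, 37.3% of the table's genes and 35.7% of all promoters. The 9 matched licensing and helicase genes with an E2F word were MCM2, MCM3, MCM6, MCM7, CDC6, CDT1, GINS1, GINS2 and GINS3. These are matches of letters only, with no binding measured.

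**Figure D1:**
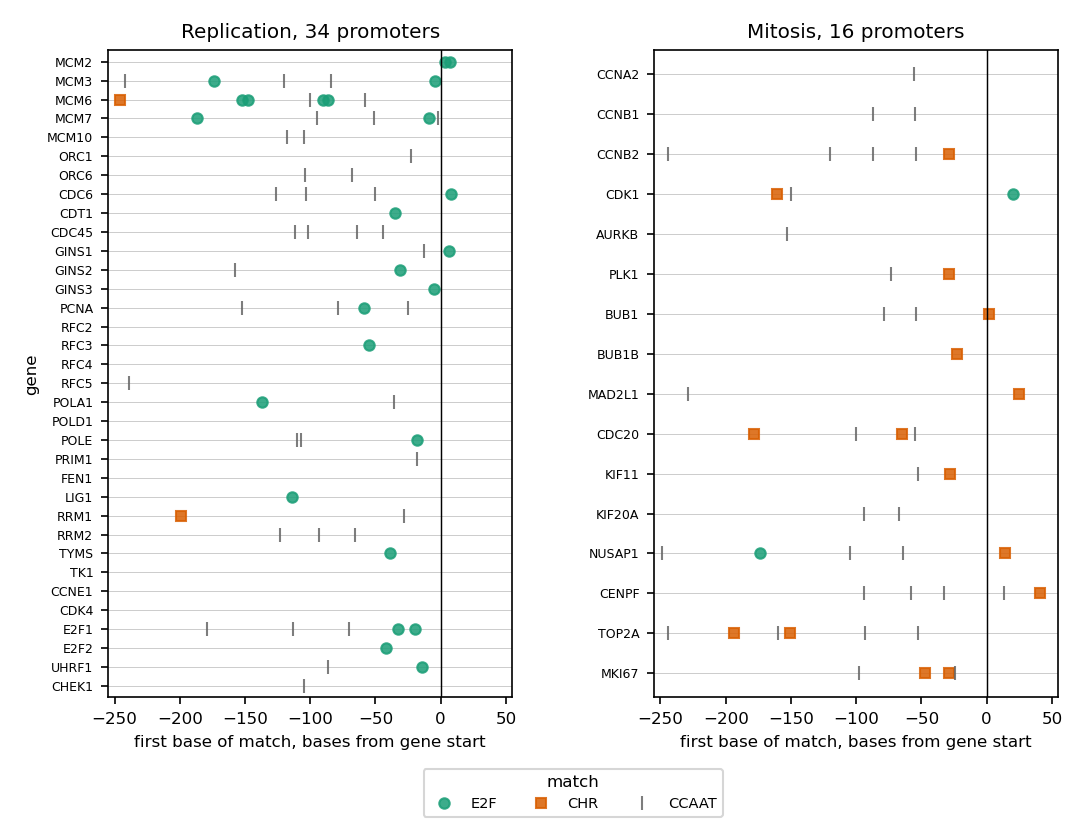
Position of each E2F, CHR and CCAAT match in the 34 replication promoters (left) and 16 mitosis promoters (right), with the distance of its first base from the gene start in bases on the x axis and 1 gene per row. E2F matches stand mostly on the left panel (18 of 34 genes) and CHR matches mostly on the right (12 of 16 genes).

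The libraries of a group were not all alike. FPKM sums ran from 220444 to 233854 per library, no 2 libraries were identical, and the read depth is unknown. Library AGEs 1 stood apart. Its fitted library weight was 0.18 (the other 11 had 0.42 to 1.83), and over the 57 genes its difference from the gene mean followed transcript GC content (r = 0.71, a description over genes). It held the highest of the 12 values for 10 genes and the lowest for 12. Replication transcripts had a median GC content of 50.3% and mitosis transcripts 43.2%. Library glucose 3 had the weight 0.42, the highest value for 16 genes and the lowest for 0 genes. Counts and medians of comparisons that use AGEs 1 or glucose 3 are therefore also given without that library. Neutrophil markers fitted the label in part, with 10 of 12 in the table, CYBB at 363 to 389 FPKM and ITGB2 at 163 to 195 FPKM by group mean, while the granule gene CEACAM8 averaged 0.860 to 1.08 FPKM. LTF and MMP9 were not in the table.

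All 57 genes were detected, which the rule that chose them had fixed, and 45 of them had a mean of 5 FPKM or more. Their mean over the 12 libraries ran from 1.58 FPKM for MCM10, which helps start forks, to 90.4 FPKM for PCNA, the sliding clamp, and their median was 10.1 FPKM, against 6.91 FPKM over all genes tested. No gene was listed at 0 in any library. On this scale per length, TYMS, which makes thymidylate, followed PCNA at 47.2 FPKM, then MCM3 at 45.7 FPKM and MCM7 at 42.2 FPKM. TOP2A, the topoisomerase that untangles chromosomes, led the mitosis genes at 39.6 FPKM. The 6 subunits of the MCM ring stood between 17.3 FPKM (MCM5) and 45.7 FPKM (MCM3), above the loading factors CDT1 (10.4 FPKM) and CDC6 (5.70 FPKM). MKI67, the gene of the proliferation marker Ki-67, averaged 20.5 FPKM.

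The main pattern was a small and broad difference of the replication genes in glucose. The 57 genes were chosen with earlier results of these data known and share the same libraries, so their counts are descriptions. In wider lists of the same pathways, given below, the classes differed less, with 82.7% of other replication and 72.1% of other mitosis genes above 0. With glucose, 37 of 38 replication genes had a log2 fold change above 0 against BSA, with a median of 0.13, while 10 of 19 mitosis genes did, with a median of 0.019. Over all genes tested 49.6% were above 0, with a median of -0.0013. None of the 57 passed the threshold of 0.05 on the adjusted p in this or any other comparison, where 0.103% of all genes passed for glucose against BSA in limma. At an unadjusted p under 0.05, 11 replication genes were higher (4.68% of all genes were) and 0 were lower, where 5.35% of all genes were, and for mitosis genes both counts were 0. The 3 glucose libraries lay wholly above the 3 BSA libraries for 17 replication and 3 mitosis genes (7.93% of all genes) and wholly below them for 0 of the 57 (9.02% of all genes). The glucose mean was the highest of the 4 groups for 32 of 38 replication genes and for 5 of 19 mitosis genes, against 28.7% of all genes. The mean of AGEs with glucose was the lowest for 20 of 38 replication and 8 of 19 mitosis genes, against 22.4% of all genes.

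**Figure D2:**
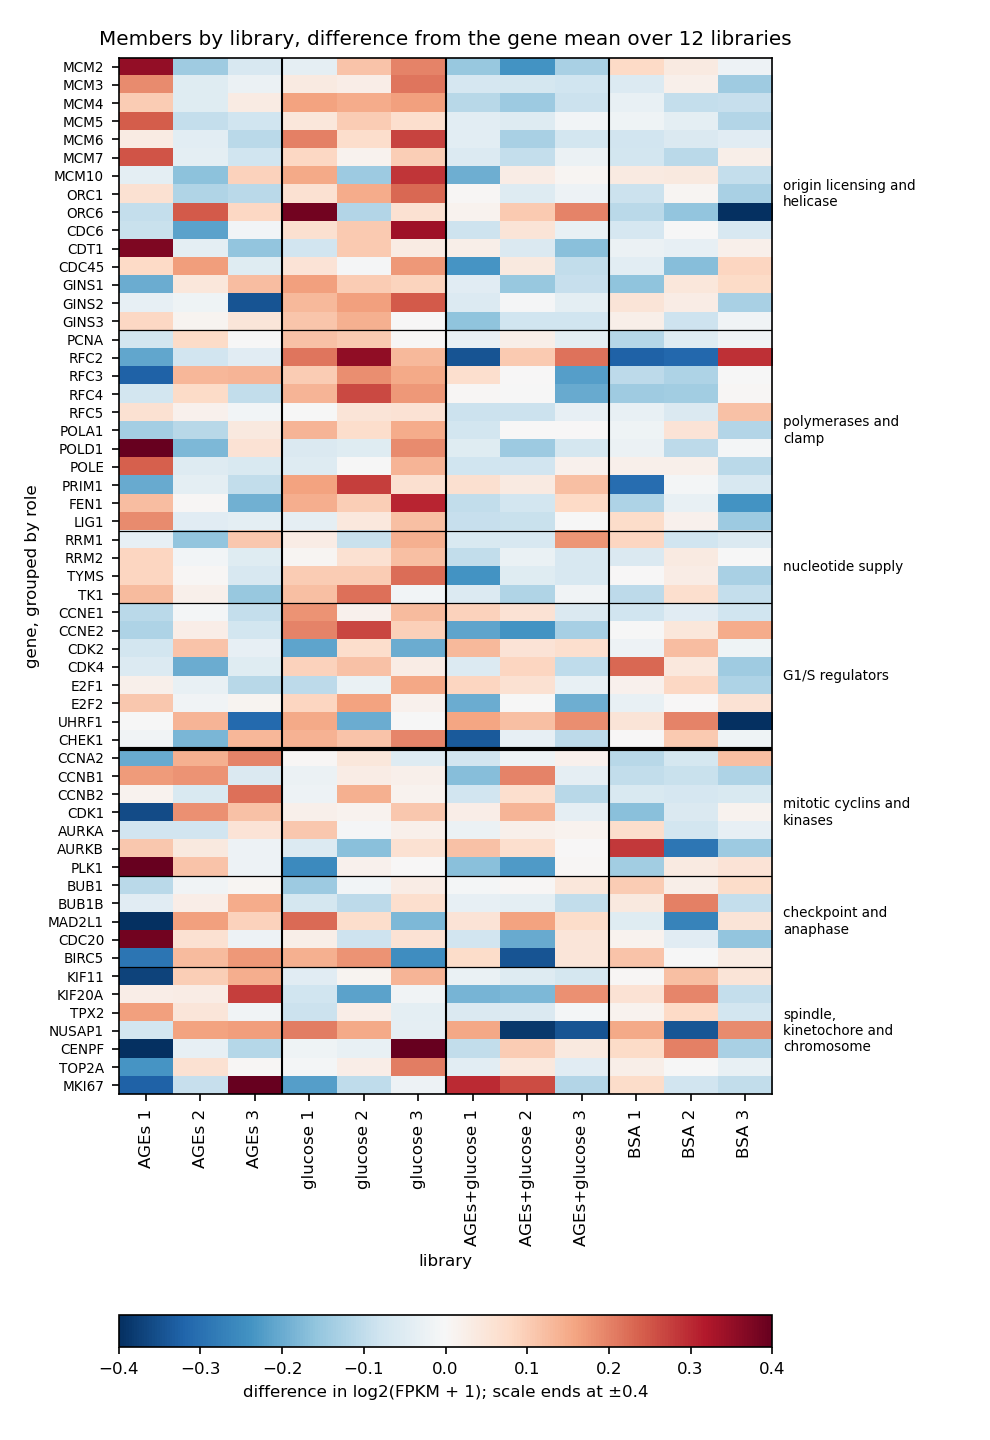
Difference of log2(FPKM + 1) from the gene's mean over 12 libraries, with the libraries on the x axis in the order AGEs, glucose, AGEs with glucose and BSA, and the 57 genes on the y axis by role (red above, blue below, colour ending at ±0.4). The glucose columns are mostly red above the thick line, where the 38 replication genes stand, and mixed below it, and AGEs 1 holds strong colours of both signs.

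Among licensing and helicase genes, all 15 had a positive log2 fold change for glucose against BSA, from 0.033 (CDT1) to 0.40 (ORC6), with a median of 0.13. MCM4, a ring subunit, had 22.3, 22.1 and 22.4 FPKM in glucose libraries, against 19.4, 18.5 and 18.6 FPKM in BSA libraries. The groups did not overlap, and the log2 fold change was 0.23 ± 0.058 (limma SE, n = 3 each) with an adjusted p of 0.229, the smallest among the 57. MCM6, its neighbour in the ring, had 32.9, 30.0 and 34.6 FPKM with glucose and 27.0, 27.3 and 27.6 FPKM with BSA, again without overlap (0.24 ± 0.066, adjusted p = 0.270). MCM3 had 46.8, 46.5 and 53.1 FPKM with glucose and 43.9, 46.3 and 41.3 FPKM with BSA, with a narrow gap between glucose 2 and BSA 2, and its log2 fold change of 0.15 was 0.091 without glucose 3. MCM2 showed the least within the ring, with 26.2, 29.1 and 31.0 FPKM in glucose and 28.4, 27.6 and 26.5 FPKM in BSA libraries, and its groups overlapped.

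The loading factors and helicase activators had the same sign. ORC1, the largest origin recognition subunit, had 12.9, 13.8 and 14.7 FPKM in glucose libraries and 11.6, 12.4 and 11.2 FPKM in BSA libraries, with no overlap and a log2 fold change of 0.22 ± 0.074 (adjusted p = 0.375). ORC6 had the largest fold change of the 57 and a wide spread, with 6.91, 4.58 and 5.32 FPKM in glucose and 4.62, 4.43 and 2.95 FPKM in BSA libraries. Its groups overlapped, and BSA 3 was far below the other libraries. CDC6, which loads the ring, had 5.97, 6.17 and 7.43 FPKM with glucose and 5.37, 5.66 and 5.38 FPKM with BSA, and its log2 fold change of 0.21 was 0.13 without glucose 3. GINS2, part of the active helicase, had 3.301, 3.405 and 3.664 FPKM with glucose and 3.07, 3.02 and 2.60 FPKM with BSA, also without overlap. In all, 8 of these 15 genes had glucose libraries wholly above the BSA libraries, as 7.93% of all genes did.

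All 11 polymerase and clamp genes also had a positive log2 fold change, with a median of 0.14. FEN1, the nuclease that trims Okazaki fragments, had 30.5, 29.5 and 34.2 FPKM with glucose, against 25.2, 26.9 and 23.1 FPKM with BSA (log2 fold change 0.31 ± 0.096, adjusted p = 0.312). PRIM1, the catalytic primase subunit, had 11.78, 12.86 and 10.95 FPKM with glucose and 8.25, 10.4 and 9.93 FPKM with BSA (0.29 ± 0.090, adjusted p = 0.312). Neither gene's groups overlapped, and the lowest glucose library of PRIM1 was close to the highest BSA library. RFC4, a subunit of the clamp loader, had 7.12, 7.89 and 7.34 FPKM in glucose and 5.70, 5.72 and 6.41 FPKM in BSA libraries, with no overlap (0.28 ± 0.084, adjusted p = 0.311).

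PCNA, the most abundant of the 57, had 98.1, 97.2 and 90.5 FPKM with glucose and 83.3, 87.3 and 89.4 FPKM with BSA. Its log2 fold change of 0.13 was the smallest of those with an unadjusted p under 0.05, and it was 0.17 without glucose 3, which was the lowest glucose library for this gene. RFC2 had a larger log2 fold change of 0.35 but groups that overlapped, since BSA 3 at 11.9 FPKM lay among the glucose libraries at 10.5 to 12.5 FPKM. POLD1 and POLE, catalytic subunits of the 2 main replicative polymerases, had 0.074 and 0.050, which were -0.0071 and -0.0044 without glucose 3.

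For nucleotide supply, TYMS had 50.46, 50.52 and 55.02 FPKM with glucose, against 47.0, 48.0 and 42.9 FPKM with BSA, with no overlap (log2 fold change 0.17 ± 0.074, adjusted p = 0.475). TK1, which salvages thymidine, had 17.4, 18.7 and 15.8 FPKM with glucose and 14.7, 16.7 and 14.8 FPKM with BSA, and its groups overlapped. The ribonucleotide reductase subunits RRM1 and RRM2 differed least, at 0.044 and 0.071.

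Of the G1 to S regulators, 7 of 8 were above 0, with a median of 0.072. CCNE1, a cyclin E gene, had 3.28, 2.82 and 3.12 FPKM in glucose libraries and 2.58, 2.66 and 2.58 FPKM in BSA libraries, without overlap (0.18 ± 0.072, adjusted p = 0.462). CCNE2, the other cyclin E gene, had 3.49, 3.71 and 3.18 FPKM with glucose and 2.91, 3.04 and 3.34 FPKM with BSA, and the groups overlapped. CDK2, the partner kinase of both, was the only replication gene with a negative value, at 5.257, 6.604 and 5.320 FPKM with glucose and 6.14, 6.89 and 6.16 FPKM with BSA (-0.14 ± 0.090, adjusted p = 0.663). E2F1, whose product activates many of the genes above, differed by 0.015 and by -0.058 without glucose 3.

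**Figure D3:**
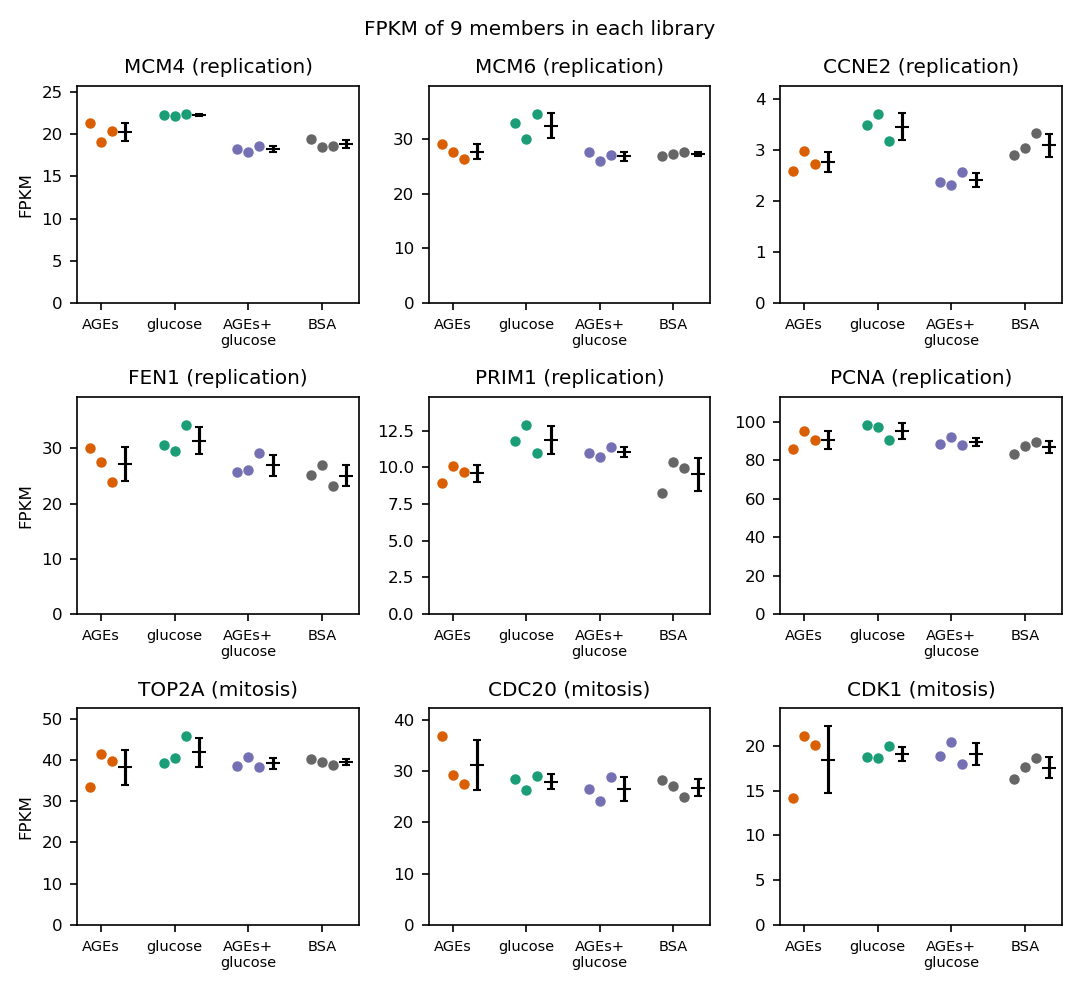
FPKM of 9 genes in each library (points) with the group mean and SD (bars, n = 3), groups in the order AGEs, glucose, AGEs with glucose and BSA, on axes that start at 0. The glucose points of MCM4 and MCM6 lie above the points of every other group, while those of CDC20 and CDK1 lie among the other groups, as do 2 of the 3 of TOP2A (glucose 3 is its highest library).

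The mitosis genes were divided in sign. CDK1, the mitotic kinase, had 18.7, 18.6 and 20.0 FPKM in glucose libraries and 16.3, 17.7 and 18.6 FPKM in BSA libraries, which did not overlap by a small margin (log2 fold change 0.12 ± 0.12, adjusted p = 0.810). Its B-type cyclins CCNB1 and CCNB2 also had glucose libraries above the BSA libraries, with log2 fold changes of 0.11 each. These 3 were the only ones of the 19 mitosis genes to do so, against 7.93% of all genes. TOP2A had 39.3, 40.3 and 45.7 FPKM with glucose and 40.2, 39.5 and 38.7 FPKM with BSA, and its log2 fold change of 0.077 was 0.013 without glucose 3.

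The most negative log2 fold changes among mitosis genes were those of KIF20A, a kinesin of cytokinesis, and BUB1, a checkpoint kinase. KIF20A had 4.16, 3.71 and 4.40 FPKM with glucose and 4.68, 5.25 and 4.11 FPKM with BSA (-0.16 ± 0.12). BUB1 had 6.14, 6.83 and 7.06 FPKM with glucose and 7.47, 7.03 and 7.31 FPKM with BSA (-0.11 ± 0.068), and the groups of both genes overlapped. MKI67 had 17.3, 18.9 and 20.0 FPKM with glucose and 21.4, 19.2 and 18.9 FPKM with BSA. By role, 5 of 7 cyclins and kinases, 2 of 5 checkpoint genes and 3 of 7 spindle genes were above 0. The mitosis median was below 0 without BSA 2 (-0.0026) or BSA 3 (-0.012), and it was 0.070 without BSA 1 and 0.054 without glucose 2.

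**Figure D4:**
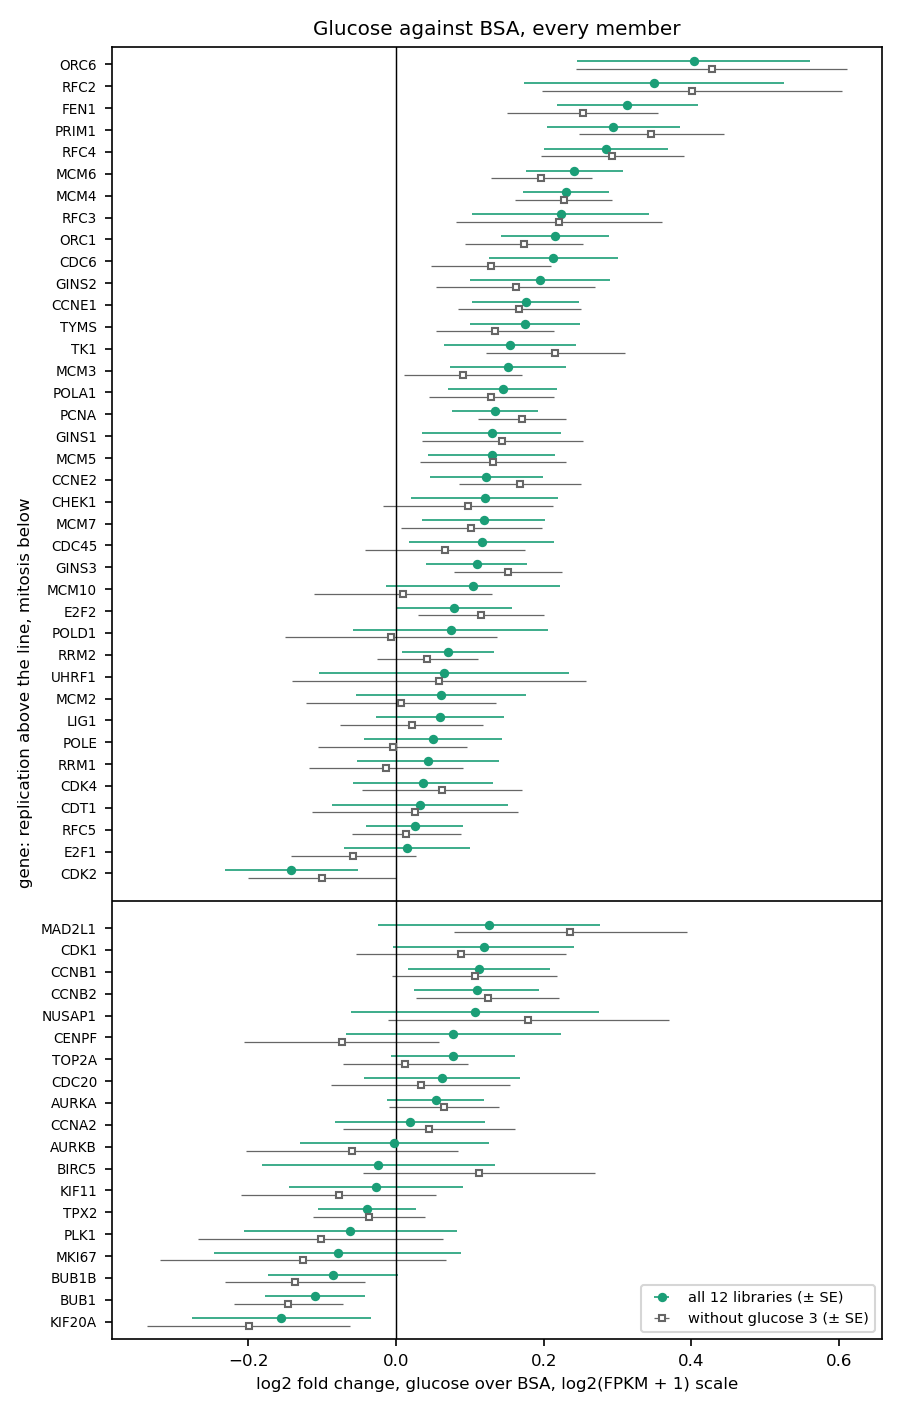
Log2 fold change of glucose over BSA on the log2(FPKM + 1) scale (x axis) for each of the 57 genes (y axis, replication above the line and mitosis below), with limma SE, from all 12 libraries (filled) and without glucose 3 (open). Of the 38 replication genes, 37 lie right of 0 with all libraries and 33 without glucose 3, and of the 19 mitosis genes 10 do in each case.

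The class difference was also there without glucose 3, where 33 of 38 replication genes were above 0 with a median of 0.13. Of these, 8 had an unadjusted p under 0.05 (5.75% of all genes, higher) and 21 had groups that did not overlap (16.1% of all genes, higher). Without it, 10 of 19 mitosis genes were above 0 with a median of 0.013, and 47% of all genes were above 0. MCM4, MCM6, RFC4, FEN1, PRIM1, ORC6 and PCNA kept an unadjusted p under 0.05, TK1 gained one, and ORC1, CDC6, CCNE1 and TYMS did not keep one. All 15 licensing genes stayed above 0, and 9 of 11 polymerase genes did. None was called without glucose 3, with a smallest adjusted p of 0.225 for PRIM1 against 0.312 with it. Counts at an unadjusted p under 0.05 moved with other libraries too, from 7 without BSA 1 or BSA 3 to 15 without AGEs 1, while between 33 and 37 replication genes were above 0 whichever single library was left out.

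A score per library, the mean difference of a class from the gene means over 12 libraries, gave the classes library by library. The replication score was 0.036, -0.026 and -0.043 in AGEs libraries and 0.084, 0.084 and 0.13 in glucose libraries. It was -0.071, -0.035 and -0.032 in libraries of AGEs with glucose, and -0.041, -0.018 and -0.066 in BSA libraries. The 3 glucose libraries were thus the highest 3 of the 12. The group means were 0.098 ± 0.025 for glucose and -0.041 ± 0.024 for BSA (SD, n = 3 each), and the glucose mean was 0.084 without glucose 3. The mitosis score averaged 0.0045 ± 0.023 in glucose and -0.010 ± 0.027 in BSA libraries, with groups that overlapped. Replication minus mitosis was 0.094 ± 0.0089 in glucose, -0.026 ± 0.025 in AGEs with glucose and -0.031 ± 0.037 in BSA libraries, and it averaged 0.092 in glucose libraries 1 and 2. In AGEs libraries it was 0.11, -0.087 and -0.14, so that AGEs 1 lay above every glucose library on this measure.

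**Figure D5:**
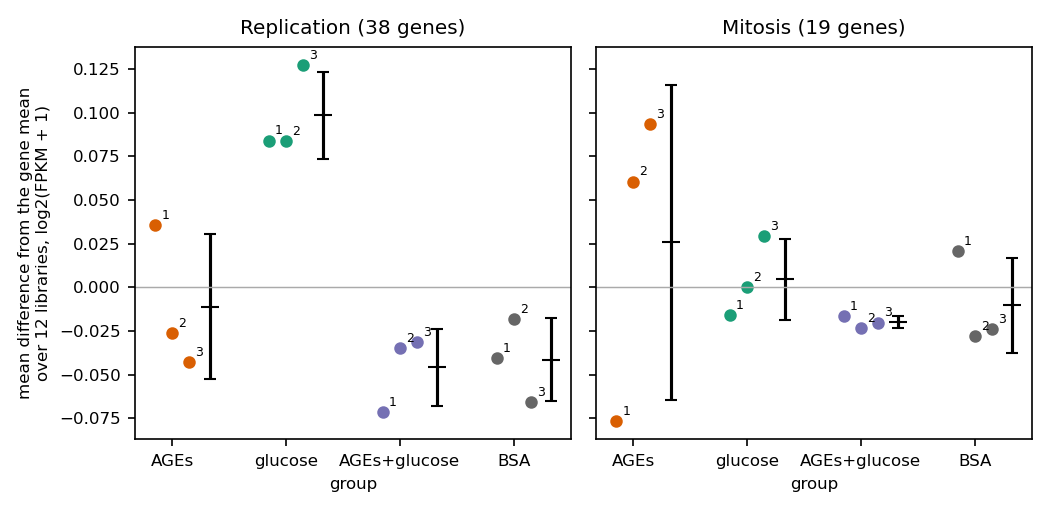
Mean difference of the 38 replication genes (left) and 19 mitosis genes (right) from their gene means over 12 libraries, in log2(FPKM + 1), for each library (points, numbered by replicate) with group mean and SD (bars, n = 3). Glucose libraries lie at 0.084 to 0.13 on the left, above the other 9 libraries, and among them on the right.

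Some markers of other cell types moved with glucose as well. The summed FPKM of 6 promyelocyte markers, of 8 listed, was 103 to 106 in glucose libraries and 112 to 125 in BSA libraries, of which MPO, the myeloperoxidase gene, made up 90.9 ± 1.20 FPKM in glucose and 110 ± 6.69 FPKM in BSA libraries. MYB, a progenitor transcription factor in the same list, went the other way, with 10.9 ± 0.331 FPKM in glucose, 7.40 ± 0.236 FPKM in AGEs with glucose and 7.78 ± 1.88 FPKM in BSA libraries (SD, n = 3 each). CSF1R, the 1 monocyte marker measured of 5, was 6.23 to 7.12 FPKM in glucose and 8.77 to 10.8 FPKM in BSA libraries. The 10 neutrophil markers summed to 1404 to 1490 FPKM with glucose and 1480 to 1514 FPKM with BSA, and 4 of 7 eosinophil and basophil markers to 2374 to 2611 FPKM with glucose and 2180 to 2449 FPKM with BSA, and both sums overlapped between the groups. The 2 lymphoid markers measured of 5 summed to 2.27 to 2.89 FPKM with glucose and 2.32 to 3.15 FPKM with BSA. Of 4 erythroid markers listed, 0 were in the table. None of the markers measured was listed at 0 as a group mean, and their part in the result was not tested. The correlation of the 57 differences with transcript GC content was -0.24, -0.086 and -0.063 in glucose libraries and 0.11, 0.0038 and -0.20 in BSA libraries, which overlapped. Over the replication genes alone it was -0.47, -0.18 and -0.15 in glucose and 0.18, 0.039 and -0.12 in BSA libraries, which did not overlap. Over the mitosis genes it was -0.29 in each glucose library and 0.29, -0.079 and -0.35 in BSA libraries, which overlapped. Over all genes it was -0.18, -0.11 and -0.18 in glucose and 0.060, -0.0037 and -0.12 in BSA libraries, which overlapped. With GC and length trends removed, 36 of 38 replication and 10 of 19 mitosis genes were above 0 for glucose against BSA. GC content as a cause of the result was not tested.

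With AGEs alone the genes stood near their BSA level. Against BSA, 27 of 38 replication genes were above 0 with a median of 0.022, and 12 of 19 mitosis genes with a median of 0.052, where 49.4% of all genes were above 0. None was called (0.0309% of all genes were), and ORC6 was the only 1 of the 57 with an unadjusted p under 0.05, against 2.72% of all genes, higher. ORC6 had 4.677, 6.185 and 5.420 FPKM with AGEs and 4.62, 4.43 and 2.95 FPKM with BSA (log2 fold change 0.37 ± 0.16, adjusted p = 0.977). AGEs libraries lay wholly above BSA libraries for ORC6, CCNB1 and CCNB2 (4.82% of all genes) and wholly below them for BUB1 (3.99% of all genes). The log2 fold change of ORC6 was 0.21 without BSA 3.

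The order of the 2 classes depended on single AGEs libraries. Without AGEs 3, 26 of 38 replication genes were above 0 with a median of 0.050 and 7 of 19 mitosis genes with a median of -0.025, and leaving out AGEs 1 gave the opposite order. Among the AGEs libraries, AGEs 1 had the lowest values for KIF11, the spindle motor, at 8.66 FPKM (12.4 and 12.8 FPKM in the other AGEs libraries) and for CDK1 at 14.2 FPKM (21.1 and 20.1 FPKM), and the highest for CDC20, the anaphase activator, at 36.8 FPKM (29.2 and 27.5 FPKM). Without AGEs 1, 15 of 38 replication genes were above 0 with a median of -0.0084, and 17 of 19 mitosis genes with a median of 0.084, where 52.4% of all genes were above 0. The mitosis score was -0.077, 0.061 and 0.093 in AGEs libraries, against 0.021, -0.028 and -0.024 in BSA libraries. Without AGEs 1, 6 mitosis genes (CCNA2, CCNB1, CCNB2, CDK1, MAD2L1 and BIRC5) had AGEs libraries wholly above the BSA libraries, against 14.3% of all genes, higher. CCNA2 and CDK1, and with them ORC6 and RFC3, then had an unadjusted p under 0.05 (4.03% of all genes, higher), each with an adjusted p of 0.666.

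With AGEs and glucose together the replication genes also stood near their BSA level. Of 38 replication genes 16 were above 0 with a median of -0.017, and of 19 mitosis genes 7 with a median of -0.014, where 47.8% of all genes were above 0. None was called (0.0103% of all genes were), 2 had an unadjusted p under 0.05 and a higher value (2.94% of all genes), and 1 a lower value (2.53%). ORC6 had 5.12, 5.51 and 5.95 FPKM with AGEs and glucose, above its BSA values of 4.62, 4.43 and 2.95 FPKM (0.40 ± 0.16, adjusted p = 0.894). PRIM1 had 10.9, 10.7 and 11.4 FPKM with AGEs and glucose and 8.25, 10.4 and 9.93 FPKM with BSA (0.20 ± 0.090, adjusted p = 0.894). CCNE2 had 2.38, 2.31 and 2.57 FPKM with AGEs and glucose, all below 2.91, 3.04 and 3.34 FPKM with BSA (-0.26 ± 0.077, adjusted p = 0.695). Libraries of AGEs with glucose lay wholly above BSA libraries for ORC6, PRIM1 and MAD2L1 (8.51% of all genes) and wholly below them for MCM2, CCNE2, CHEK1 and KIF11 (9.15% of all genes). Without any 1 library the replication median stayed between -0.025 and -0.00023, and the mitosis median between -0.049 and 0.0016, above 0 only without library 1 of AGEs with glucose. The comparisons against BSA share the same 3 BSA libraries, so their values are set side by side only.

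The comparison that bears on adding AGEs to glucose, AGEs with glucose against glucose alone, was added after the values were seen and shares the glucose libraries with the comparison above. Only CDK2, E2F1 and UHRF1, which guides maintenance of DNA methylation, of 38 replication genes were above 0, with a median of -0.16, and 5 of 19 mitosis genes were, with a median of -0.025, where 49.8% of all genes were above 0. None was called (0.0309% of all genes were). At an unadjusted p under 0.05, 13 replication genes and 0 mitosis genes were lower (2.67% of all genes), and 22 replication genes and 0 mitosis genes had libraries wholly below the glucose libraries (7.87% of all genes). Without glucose 3 the replication median was -0.13, with 4 of 38 above 0, 9 lower at an unadjusted p under 0.05 (1.8% of all genes) and 25 without overlap (14.2% of all genes), and the mitosis median was -0.011. The count at an unadjusted p under 0.05 was 5, 7 and 8 without library 1 of AGEs with glucose, library 3 of AGEs with glucose and library glucose 2, and at most 18, without AGEs 1. The promyelocyte markers summed to 135 to 138 FPKM in AGEs with glucose and 103 to 106 FPKM in glucose libraries, and the eosinophil and basophil markers to 2679 to 2763 FPKM in AGEs with glucose and 2374 to 2611 FPKM in glucose libraries. The neutrophil markers summed to 1491 to 1521 FPKM in AGEs with glucose and 1404 to 1490 FPKM in glucose libraries. CSF1R was 8.17 to 8.39 FPKM in AGEs with glucose and 6.23 to 7.12 FPKM in glucose libraries. Neither CSF1R nor any of these sums overlapped between the groups. MPO made up most of the promyelocyte sum, with 126 ± 1.57 FPKM in AGEs with glucose and 90.9 ± 1.20 FPKM in glucose libraries. MYB of that list went the other way, with 7.40 ± 0.236 and 10.9 ± 0.331 FPKM. CLC made up most of the eosinophil and basophil sum, with 2535 ± 30.5 and 2357 ± 119 FPKM. FPR1 of the neutrophil list was lower in AGEs with glucose, with 4.19 ± 0.178 and 4.66 ± 0.322 FPKM. The part of the markers in the result was not tested.

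By role, 0 of 15 licensing, 0 of 11 polymerase and 0 of 4 nucleotide supply genes were above 0, and 3 of 8 G1 to S regulators were. CCNE2, of the last role, had the largest difference of the 38 replication genes, with the 2.38, 2.31 and 2.57 FPKM given above against 3.49, 3.71 and 3.18 FPKM with glucose alone (-0.38 ± 0.077, adjusted p = 0.311). MCM4 had 18.3, 17.8 and 18.6 FPKM with AGEs and glucose and 22.3, 22.1 and 22.4 FPKM with glucose (-0.27 ± 0.058, adjusted p = 0.311). MCM6 had 27.6, 26.0 and 27.0 FPKM with AGEs and glucose and 32.9, 30.0 and 34.6 FPKM with glucose (-0.26 ± 0.066, adjusted p = 0.504). In these 3 genes every library of AGEs with glucose was below every glucose library.

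TYMS had 39.6, 45.4 and 44.9 FPKM with AGEs and glucose and 50.46, 50.52 and 55.02 FPKM with glucose (-0.26 ± 0.074, adjusted p = 0.619). CHEK1, a checkpoint kinase of S phase, had 2.20, 2.94 and 2.75 FPKM with AGEs and glucose and 3.45, 3.37 and 3.63 FPKM with glucose (-0.31 ± 0.10, adjusted p = 0.702). Neither overlapped. MKI67 had the highest value among mitosis genes, with 25.2, 24.6 and 18.6 FPKM in AGEs with glucose and 17.3, 18.9 and 20.0 FPKM in glucose libraries (0.26 ± 0.17), and NUSAP1, a spindle protein, the lowest, with 20.8, 14.0 and 14.4 FPKM against 21.6, 20.8 and 18.1 FPKM (-0.30 ± 0.17). Both overlapped between groups.

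The interaction, the effect of AGEs in glucose minus the effect of AGEs without it, tested that contrast across the 4 groups. The first effect is taken against glucose with no labelled BSA and the second against BSA. The interaction may therefore also hold a difference in the added protein. For 5 of 38 replication genes it was above 0, with a median of -0.20, and for 6 of 19 mitosis genes, with a median of -0.035, where 50.2% of all genes were above 0. None was called (0.0103% of all genes were), and 9 replication genes had an unadjusted p under 0.05, lower (2.48% of all genes). MCM4 had the smallest adjusted p, 0.369, with -0.37 ± 0.082. Without AGEs 1 the medians were -0.13 for replication and -0.12 for mitosis, so the interaction separated the classes by much less without that library. Without glucose 3 they were -0.19 with 5 of 38 above 0 and -0.028 with 8 of 19 above 0 (52.4% of all genes were above 0), and 8 replication genes had an unadjusted p under 0.05, lower (3.03% of all genes). The mitosis median was 0.013 without AGEs 3. The count of 9 was 4 without library 1 of AGEs with glucose and 5 without BSA 1 or glucose 2.

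Averaged over both levels of AGEs, glucose gave 25 of 38 replication genes above 0 with a median of 0.044, and 9 of 19 mitosis genes with a median of -0.017, where 50.2% of all genes were above 0. The replication median was 0.022 with 23 of 38 above 0 without glucose 3 (47.5% of all genes were above 0), 0.024 without AGEs 2 or BSA 3, and 0.051 with 29 of 38 above 0 without AGEs 1. The mitosis median was -0.014 without glucose 3, -0.046 without AGEs 1 and 0.0025 without glucose 1. None was called (0.0412% of all genes were), and 6 replication genes had an unadjusted p under 0.05, higher (3.86% of all genes), against 2 without glucose 3 (5.41%) and 3 without glucose 1 or without library 2 or 3 of AGEs with glucose. PRIM1 was the only 1 of the 57 whose 6 libraries with glucose all lay above the 6 without it, as 0.237% of all genes did (0.24 ± 0.064, adjusted p = 0.369). Averaged over both levels of glucose, AGEs gave 4 of 38 replication genes above 0 with a median of -0.058, and 11 of 19 mitosis genes with a median of 0.020, where 49.9% of all genes were above 0. The replication count was 9 of 38 without AGEs 2 or AGEs 3, 7 of 38 without glucose 3 (51.7% of all genes were above 0), BSA 1 or library 1 of AGEs with glucose, and 5 of 38 without AGEs 1, and its median stayed between -0.073 and -0.045. The mitosis median was 0.010 without glucose 3 and 0.0062 without AGEs 1, and it was below 0 without AGEs 2 (-0.0034), AGEs 3 (-0.018) or BSA 1 (-0.00056). None was called (0.0103% of all genes were), and 4 replication genes had an unadjusted p under 0.05, lower (2.53% of all genes), against 1 without glucose 3 (1.87%), 2 without BSA 2 or library 1 of AGEs with glucose, and 8 without AGEs 1. The 1 that remained without glucose 3 was CCNE2, at -0.25 ± 0.054 (adjusted p = 0.409) and at -0.27 without glucose 3.

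Other genes of the same pathways, taken from lists chosen by name, are given by their counts. For glucose against BSA, 43 of 52 other replication genes (82.7%) were above 0 with a median of 0.090, and 44 of 61 other mitosis genes (72.1%) with a median of 0.052, against 97.4% and 52.6% of the 38 replication and 19 mitosis genes above and 49.6% of all genes. None of either list was called. At an unadjusted p under 0.05, 7 of the 52 and 4 of the 61 were higher, where 4.68% of all genes were. Without glucose 3 these were 39 of 52 with a median of 0.070 and 36 of 61 with a median of 0.026. CDC25A, the phosphatase that activates CDK2, had 8.82, 9.07 and 9.02 FPKM in glucose and 5.46, 7.01 and 7.26 FPKM in BSA libraries, with no overlap (0.40 ± 0.090, adjusted p = 0.160). POLE4, a small subunit of polymerase epsilon, had 12.2, 10.4 and 10.4 FPKM with glucose and 8.36, 7.27 and 8.94 FPKM with BSA, also without overlap (0.39 ± 0.090, adjusted p = 0.175).

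Among 18 CDK inhibitors, pocket proteins and other brakes on the cycle, 7 were above 0 for glucose against BSA with a median of -0.054, and among 16 G1 cyclins and E2F partners 13 were, with a median of 0.093. BTG2, an antiproliferative gene, had 58.9, 58.4 and 58.8 FPKM with glucose and 65.3, 72.2 and 69.5 FPKM with BSA, with no overlap (-0.23 ± 0.055, adjusted p = 0.198). CDKN1A, the gene of the inhibitor p21, averaged 3.35 ± 0.456 FPKM with glucose and 4.04 ± 0.0511 FPKM with BSA, and CDKN1B, the gene of the inhibitor p27, 17.1 ± 0.561 FPKM with glucose and 18.7 ± 2.35 FPKM with BSA (SD, n = 3 each). RB1 averaged 25.4 ± 0.905 FPKM with glucose and 24.8 ± 1.62 FPKM with BSA. Of the D-type cyclins, CCND1 had 42.1, 39.8 and 44.3 FPKM with glucose and 47.5, 51.6 and 51.4 FPKM with BSA (-0.25 ± 0.069, adjusted p = 0.286), and CCND3 had 26.8, 18.6 and 23.9 FPKM with glucose and 18.3, 15.8 and 17.6 FPKM with BSA (0.39 ± 0.16, adjusted p = 0.461). CCND1 was thus lower and CCND3 higher in every glucose library than in any BSA library. MYC averaged 2.02 ± 0.613 FPKM with glucose and 1.59 ± 0.729 FPKM with BSA, and CDK6 1.13 ± 0.107 FPKM with glucose and 1.06 ± 0.0329 FPKM with BSA.

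Within the replication genes, those with and without an E2F word had similar fold changes. The 18 with an E2F word had a median log2 fold change of 0.12 for glucose against BSA (range 0.015 to 0.24), and the 16 without one had 0.14 (range 0.025 to 0.40). The 12 mitosis genes with a CHR word had a median of 0.070 and the 4 without one 0.0083. For AGEs with glucose against glucose, the medians were -0.18 for replication genes with an E2F word and -0.14 for those without. These are descriptions over genes that share the same libraries.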

How the data were processed

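RNA of HL-60-induced neutrophils was sequenced in 12 libraries, and the authors deposited 1 table of FPKM per gene. Per the submitters' processing notes, the tools were StringTie, STAR 2.5.2b, HISAT2 2.0.5 and cutadapt, in no stated order, with the build hg19. FPKM keeps no read counts, so no counting interval could be given. Of 10465 rows, 38 rows of 19 repeated symbols were left out, and 9715 genes with at least 1 FPKM in 3 or more libraries were tested. Every row reached a group mean of 0.5001 FPKM, which is how the table itself is limited.

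Values were taken as log2(FPKM + 1), which understates changes of low genes, and fitted with limma 3.58.1 (R 4.3.3) as 4 group means over all 12 libraries, with a mean trend and robust variance. Adjusted p-values are Benjamini-Hochberg over all 9715 genes within a comparison, 2-sided, with 0.05 as the threshold. The code was tested on simulated data. Members and lists were chosen with earlier results of these data known. Genes named are, for each role, the 2 of highest mean FPKM, for each comparison and class the 3 of smallest p, in each pathway list the 2 of smallest p for glucose, and MYC, CDKN1A, CDKN1B, RB1, CCND3 and CDK6. By this rule CDK4, BUB1B, PLK1, TPX2, CENPF, CENPN, ESPL1, TOB2 and TFDP2 would also be described, but they are given no values of their own here. Other members named for a range, an overlap, a promoter or a single library were chosen after their values were seen. Transcript GC content and length came from the reference annotation for all 57 genes and 96.8% of genes tested. Alternatives were other scalings, pseudocounts, filters, a block for the replicate number, weights per library, removal of GC and length trends, and leaving out each library.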

Additional observations from a re-analysis of the deposited data

How the results depend on the processing

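Medians and gaps between classes are in log2(FPKM + 1). Over all alternatives 640 class values and counts stayed within the tolerance and 20 moved beyond it, where the tolerance is 1 SD between replicates of the score (0.029 for replication, 0.049 for mitosis and 0.070 for the gap) and 1.5 times for a count, and medians close to 0 changed sign where the ranges below span 0. Leaving out 1 library at a time gave these ranges. For AGEs against BSA the replication median ran from -0.0084 to 0.050, the mitosis median from -0.025 to 0.084 and the gap from -0.080 to 0.044, the lowest gap without AGEs 1. For glucose against BSA they ran from 0.121 to 0.149, from -0.012 to 0.070 (highest without BSA 1) and from 0.110 to 0.146. For the interaction they ran from -0.210 to -0.131, from -0.124 to 0.013 and from -0.164 to -0.039. For AGEs with glucose against glucose the replication median ran from -0.165 to -0.126. Without both AGEs 1 and glucose 3, a choice made after seeing the data, AGEs against BSA gave a replication median of -0.0084 and a gap of -0.080, the interaction -0.109 and -0.037, and AGEs with glucose against glucose a median of -0.126. Library weights gave interaction medians of -0.130 and -0.095. A filter at a mean of 5 FPKM, and members at 5 FPKM or more, gave -0.125 for AGEs with glucose against glucose. With library weights 1 of the 57 was called for glucose against BSA (MCM4, limma adjusted p = 0.0453), where 127 of all 9715 genes were. For AGEs with glucose against glucose the weights gave 2 (MCM4, 0.0370, and CCNE2, 0.0298), where 27 of all 9715 genes were called. With GC and length trends removed 1 was called for glucose against BSA (MCM4, 0.0445), where 40 of all 9715 genes were. Over all alternatives the adjusted p of MCM4 ran from 0.0445 to 0.557 for glucose against BSA, and for AGEs with glucose against glucose it ran from 0.0370 to 0.719 for MCM4 and from 0.0298 to 0.719 for CCNE2. The causes were not tested. Calls over all genes for glucose against BSA, 10 as reported, were 127 with library weights, 40 with GC and length trends removed, 73 without both libraries and 2 with the replicate block. Same-numbered libraries correlated at -0.21 to 0.13 over 18 pairs, 2 of them above 0.1. Libraries of other numbers did at -0.21 to 0.19 over 36 pairs, 6 of them above 0.1. These values cannot show whether same-numbered libraries share more than a number, and the labels do not say. With the replicate block 0 of the 57 were called in each comparison. Read depth is unknown, and 3 libraries a group limit the precision.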

Other observations

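For genes of the same pathways outside the 57, none was called between AGEs with glucose and glucose, and the values of 4 of them are given here. CDC25A had 7.42, 7.74 and 7.90 FPKM in AGEs with glucose, all below its 8.82, 9.07 and 9.02 FPKM in glucose and above its 5.46, 7.01 and 7.26 FPKM in BSA libraries. POLE4 had 10.7, 9.83 and 10.6 FPKM in AGEs with glucose, which overlapped its 12.2, 10.4 and 10.4 FPKM in glucose. BTG2 had 56.3, 55.6 and 55.9 FPKM in AGEs with glucose, below 58.9, 58.4 and 58.8 FPKM in glucose and 65.3, 72.2 and 69.5 FPKM in BSA libraries (log2 fold change against BSA -0.30, limma adjusted p = 0.642). CCND1 had 46.3, 45.8 and 45.9 FPKM in AGEs with glucose, between 39.8 to 44.3 FPKM in glucose and 47.5 to 51.6 FPKM in BSA libraries. Of the wider lists, 8 of 52 other replication genes and 15 of 61 other mitosis genes were above 0 for AGEs with glucose against glucose, with medians of -0.082 and -0.081.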
